A study of Mus musculus with 2 samples.

Results

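The proteasome genes described here are those whose symbols begin with Psma, Psmb, Psmc, Psmd, Psme, Psmf or Psmg and a digit, taken from every probe set that carries a single gene symbol. The rule selected 48 genes with 85 probe sets, of 12393 genes with 20380 probe sets on the array. Of the 48, Psmc3ip, which encodes a meiotic recombination factor, and Psme3ip1, which encodes a protein that binds an activator subunit, share only the spelling of a proteasome gene and are given apart. That leaves 46 genes with 83 probe sets, made up of 8 alpha core genes (Psma), 7 constitutive beta core genes (Psmb1 to Psmb7), 3 immune beta genes (Psmb8, Psmb9 and Psmb10), 6 ATPase genes (Psmc), 14 non-ATPase genes (Psmd), 3 activator genes (Psme), 1 inhibitor gene (Psmf1) and 4 assembly chaperone genes (Psmg). Psme2, the partner of Psme1, is no member because its probe set carries more than 1 symbol. The genes were chosen by name and not by their values, although earlier results of these arrays were known.

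The proteasome is the barrel-shaped protease that degrades ubiquitin-tagged proteins in the cytosol and nucleus. Rings of alpha subunits gate the entrance of its core particle and rings of beta subunits hold the catalytic sites, while a regulatory particle of ATPase and non-ATPase subunits recognises, deubiquitinates, unfolds and threads in the substrate. In cells exposed to interferon, and constitutively in many leukocytes, the catalytic beta subunits are replaced by immune counterparts that favour peptides suited to MHC class I molecules. Stromal cells make up the connective tissue beneath the epithelium of the uterus, and around the implantation site they decidualize, turning into large secretory cells.

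RNA came from stromal cells isolated by enzymatic digestion of uterine horns on day 5 of pregnancy, pooled over 3 mice per genotype. It was hybridised to Affymetrix Mouse Genome 430A 2.0 arrays, of which 1 held cells of a conditional knockout (cKO) and 1 held cells of floxed controls (flox), which carry the floxed allele without deletion. The knockout used PRcre, in which the progesterone receptor gene drives Cre recombinase and which is active in epithelial, stromal and muscle cells of the uterus, so deletion is not limited to stroma. The labels disagree on the deleted gene, which is Hif1 in the titles and Hif2 alpha (the product of Epas1) in the genotype field, while the breeding note speaks of Hif1 floxed mice and also of ablation of Rac1. Epas1 had a signal of 78.1 on the knockout-labelled array and 59.4 on the control array, Hif1a had 1544 in cKO and 721 in flox, and Rac1 had 757 in cKO and 1038 in flox. None was at background, and the array is therefore called knockout-labelled. Whether these probe sets lie within a deleted exon was not analysed here.

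Each value is a MAS5 signal, a linear brightness in arbitrary units that the authors scaled to the same trimmed mean on each array. Signals below 19.7, the 40th percentile of both arrays pooled, were raised to that floor, and a gene with several probe sets was represented by its brightest. The log2 ratio is that of the knockout-labelled array over the control array, so that 1 and -1 stand for 2-fold higher and 2-fold lower. Each group has 1 array and therefore no replicates, so no difference was tested and every value describes these 2 arrays. The error given here is how far the log2 ratios of a gene's probe sets differed, an SD of 0.64 per ratio over 2660 genes. It does not cover animals, pools or arrays, nor the mean offset of 0.41 between the brightest probe set and the next. Over 16 proteasome genes with 2 probe sets above the floor on both arrays, the SD per ratio was 0.93 and the offset 0.94. The arrays also differed in RNA ends: the signal of b-actin at its 3' end over its 5' end was 16.0 on the knockout-labelled array and 2.27 on the control array, and that of Gapdh was 7.25 in cKO and 1.49 in flox. This difference cannot be told apart from genotype, and its part in the ratios below was not tested.

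Transcripts of 45 of the 46 genes were above the floor on both arrays. The exception was Psma8, the alpha subunit known from testis, at 13.3 on the knockout-labelled array and 15.1 on the control array, both below the floor. Of the 45 genes, 11 were lower on the knockout-labelled array by 2-fold or more, or 24.4%, where 13.0% of all 8593 genes compared were. Higher by 2-fold or more were 4, or 8.89%, where 6.21% of all genes were. By any amount 32 were lower, or 71.1%, and 13 higher, where 55.3% of all genes were lower. The median log2 ratio was -0.46, against -0.10 for all genes. The largest differences were in Psmb9 (-2.58), Psme1 (-2.05), Psmd8 (-1.73), Psmb7 (-1.62) and Psmc4 (1.52). With all genes ranked by signal into 5 equal classes, the brightest class held 22 proteasome genes with a median of -0.06, where all its 1719 genes had 0.31, and the next held 15 with a median of -0.99, where all its 1718 genes had -0.0019. The split of calls moved with the scaling: median centring, which shifted the median of all genes to 0.10, gave 6 higher and 8 lower proteasome genes, quantile normalization gave 3 higher and 9 lower, and removal of the trend of ratio on signal gave 1 higher and 10 lower. The split over all genes moved too, from 534 higher and 1119 lower as deposited. It was 966 and 754 after median centring, 706 and 819 after quantile normalization, and 654 and 852 after removal of the trend. Relative to the median of all genes, the proteasome median lay at -0.36 as deposited, and at -0.36, -0.41 and -0.42 under these 3 scalings.

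**Figure D1:**
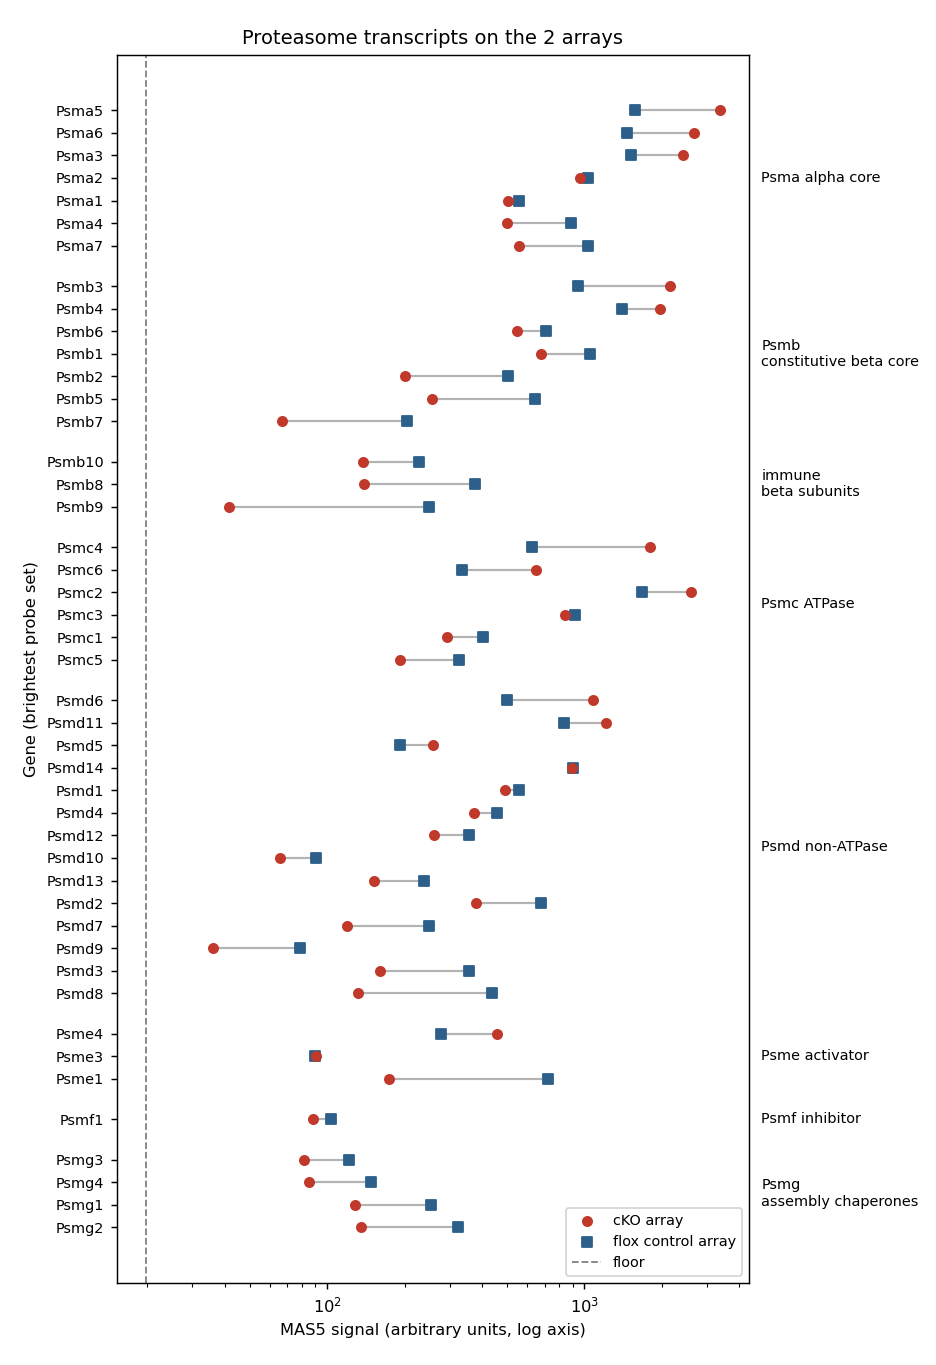
MAS5 signal (x axis, arbitrary units, log scale) of the brightest probe set of the 45 measured proteasome genes (y axis, grouped by family), with red circles for the knockout-labelled (cKO) array, blue squares for the flox control array and a dashed line at the floor of 19.7. Psmb9, Psme1 and Psmb7 show wide gaps with the control array to the right, and Psmc4, Psmb3 and Psmd6 show the knockout-labelled array to the right.

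The alpha subunits, which form the outer rings of the core and its gate, were divided. Of the 7 measured, 3 were higher and 4 lower, or 57.1% lower, where 55.3% of all genes were. Past 2-fold was 1, a higher one, and 6.21% of all genes were higher by as much. The median log2 ratio of -0.11 turned to 0.10 after median centring and to 0.03 with the median over probe sets. Psma5 had a signal of 3368 on the knockout-labelled array and 1576 on the control array, a log2 ratio of 1.10. Its next probe set went the other way, at 433 in cKO and 659.7 in flox (-0.61). Psma6 showed the same contradiction, as its brightest probe set read 2656 in cKO and 1466 in flox (0.86), the next 512 in cKO and 801 in flox (-0.64), and the dimmest measured 87.0 in cKO and 34.6 in flox (1.33). Psma3, with a single probe set, had 2426 in cKO and 1518 in flox (0.68). Psma7 was lower at both of its probe sets, with 559 in cKO and 1029 in flox at the brighter (-0.88) and 309 in cKO and 661 in flox at the other (-1.10), and Psma4 had 498 in cKO and 889.7 in flox (-0.84). Psma1 (-0.15) and Psma2 (-0.11) differed by less than the probe set error. The ring holds these subunits in equal numbers, and their ratios ran from -0.88 to 1.10. Whether they differ cannot be told, as the SD per ratio between probe sets was 0.93 over 16 proteasome genes. The higher ones with a further probe set measured on both arrays, Psma5 and Psma6, had no settled direction.

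Among the constitutive beta subunits, 3 of 7 were lower by 2-fold or more and 1 was higher by as much. Of all genes, 13.0% and 6.21% were. The median was -0.64, and 5 of 7 were lower by any amount, where 55.3% of all genes were. The 3 lower ones were Psmb7, the trypsin-like catalytic subunit, with 66.7 on the knockout-labelled array and 204 on the control array (-1.62), Psmb5, the chymotrypsin-like catalytic subunit, with 255 in cKO and 644 in flox (-1.34), and Psmb2, a structural subunit, with 201 in cKO and 504 in flox (-1.33). Each rests on a single probe set. Psmb6, the caspase-like catalytic subunit, had 547 in cKO and 706 in flox (-0.37), which is within the probe set error. All 3 catalytic subunits thus had ratios below 0, that of Psmb6 within the error, each at a single probe set. Over all genes with 1 measured probe set, 65.6% were lower. Of the noncatalytic ones, Psmb1 had 676 in cKO and 1052 in flox (-0.64), although 2 dim probe sets gave 0.42 and, with the control array at the floor, 1.05 or more. The brightest probe set of Psmb3 read 2143 in cKO and 948 in flox (1.18) and the other 72.8 in cKO and 455 in flox (-2.64), the widest contradiction of any proteasome gene with 2 probe sets measured on both arrays. Psmb4 had 1966 in cKO and 1405 in flox (0.48) and 524 in cKO and 1344 in flox (-1.36). Without probe sets of the _s_at and _x_at types, which can match transcripts of several genes, the median of the family was -1.33.

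The 3 immune beta subunits were all lower, 2 of them at least 2-fold, with a median of -1.43. Of all genes, 55.3% were lower and 13.0% at least 2-fold lower. Psmb9, the immune counterpart of Psmb6, had a signal of 41.7 on the knockout-labelled array and 250.1 on the control array, a log2 ratio of -2.58. Only 0.175% of all genes compared had a lower ratio. Psmb8, the counterpart of Psmb5, had 139 in cKO and 375 in flox (-1.43), and Psmb10, the counterpart of Psmb7, had 138 in cKO and 228 in flox (-0.73). Set against their constitutive partners, the ratios did not move as a class. Psmb9 lay 2.21 log2 units below Psmb6, Psmb8 lay at the level of Psmb5 (difference -0.09), and Psmb10 lay 0.89 above Psmb7. The SD of such a difference between a gene's own probe sets was 0.91 over all genes and 1.31 over 16 proteasome genes. Only the difference of Psmb9 from Psmb6 was beyond either SD, and that difference was -1.55 with the floor at the 60th percentile. Each of these 6 genes has a single probe set.

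Upstream sequences are shown for both pairs of immune and constitutive subunits whose windows were given, to show what these promoters hold. The 250 bases before each start site were read from RefSeq windows of build GRCm38.p6, written 5' to 3' on the strand of the gene. Capitals mark matches, on either strand, to the interferon-stimulated response element core (2 copies of GAAA with 2 bases between them), the gamma-activated site TTCNNNGAA, or the antioxidant response element core TGACNNNGC, which the proteasome gene activators NFE2L1 and NFE2L2 bind.
Psmb9, chr17:34187331-34187580, minus strand: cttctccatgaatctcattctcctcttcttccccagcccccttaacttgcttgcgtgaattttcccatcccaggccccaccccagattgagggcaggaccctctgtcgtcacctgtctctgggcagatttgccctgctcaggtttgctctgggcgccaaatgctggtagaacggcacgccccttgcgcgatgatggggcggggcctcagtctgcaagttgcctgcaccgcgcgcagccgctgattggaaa
Psmb6, chr11:70525107-70525356, plus strand: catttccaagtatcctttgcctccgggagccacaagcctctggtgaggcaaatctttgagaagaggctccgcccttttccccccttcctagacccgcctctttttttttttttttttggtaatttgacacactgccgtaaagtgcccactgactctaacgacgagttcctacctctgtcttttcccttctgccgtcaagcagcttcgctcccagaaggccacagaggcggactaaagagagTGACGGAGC
Psmb8, chr17:34197945-34198194, plus strand: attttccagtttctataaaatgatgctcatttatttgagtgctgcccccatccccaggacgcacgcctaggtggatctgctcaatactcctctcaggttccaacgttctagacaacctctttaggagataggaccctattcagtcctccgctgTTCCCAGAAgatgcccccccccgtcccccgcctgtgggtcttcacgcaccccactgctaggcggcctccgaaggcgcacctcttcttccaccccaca
Psmb5, chr14:54617996-54618245, minus strand: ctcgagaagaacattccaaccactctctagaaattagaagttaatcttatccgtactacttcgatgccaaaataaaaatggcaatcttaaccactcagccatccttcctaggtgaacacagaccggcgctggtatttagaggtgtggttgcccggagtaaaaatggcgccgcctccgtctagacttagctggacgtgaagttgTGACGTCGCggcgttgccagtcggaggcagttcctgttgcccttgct
In full windows of 250 bases before to 50 after the start site, the interferon-stimulated core was present in 3.44% of all 32851 windows, the gamma-activated site in 8.30% and the antioxidant core in 12.4%. Psmb8 held a gamma-activated site match, and Psme1 held an interferon-stimulated match, TTTCGCTTTC, 10 bases into its transcript. Psmb5 and Psmb6 each held an antioxidant core, which none of Psmb8, Psmb9, Psmb10 and Psme1 held. By gene, 6 of 38 proteasome genes with a window held the antioxidant core, 5 held the interferon-stimulated core, 3 the gamma-activated site, 13 the CCAAT box (37.4% of all windows) and 8 the hypoxia response core ACGTG (19.6% of all windows). The windows of these genes thus held such letters at shares of 15.8%, 13.2%, 7.89%, 34.2% and 21.1%, where the shares over all 27025 genes were 14.0%, 3.99%, 9.55%, 41.1% and 21.8%. The matches are descriptions of sequence and not of binding.

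Genes that work with the immune subunits in antigen presentation were measured on the same arrays. Of 10 genes of peptide loading and MHC class I, 5 were lower by 2-fold or more and none was higher by as much, where 13.0% of all genes compared were lower and 6.21% higher by that size, and the list had a median of -0.73. H2-D1 and H2-K1, the class I heavy chains, had ratios of -1.67 and -1.57, Tapbp, the peptide loading factor tapasin, had -1.51, Tap2, a chain of the peptide transporter, had -1.49, and Pdia3, a disulphide isomerase of the loading complex, had -1.08. The heavy chains were lower at every measured probe set. Psmb9, Tap1, Psmb8 and Tap2 lie next to each other in this order on chromosome 17. Their ratios did not follow that order: Tap1, the other transporter chain, had 196 on the knockout-labelled array and 238 on the control array (-0.28), between neighbours at -2.58 and -1.43. Of 10 measured genes of interferon signalling, Jak1, a receptor kinase, was at least 2-fold lower (-1.33) and Jak2, its partner kinase, at least 2-fold higher (1.62, with 0.24 at its other probe set), with a list median of -0.33. Irf1, the transcription factor that drives immune subunits under interferon, had 310 in cKO and 381 in flox (-0.30).

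**Figure D2:**
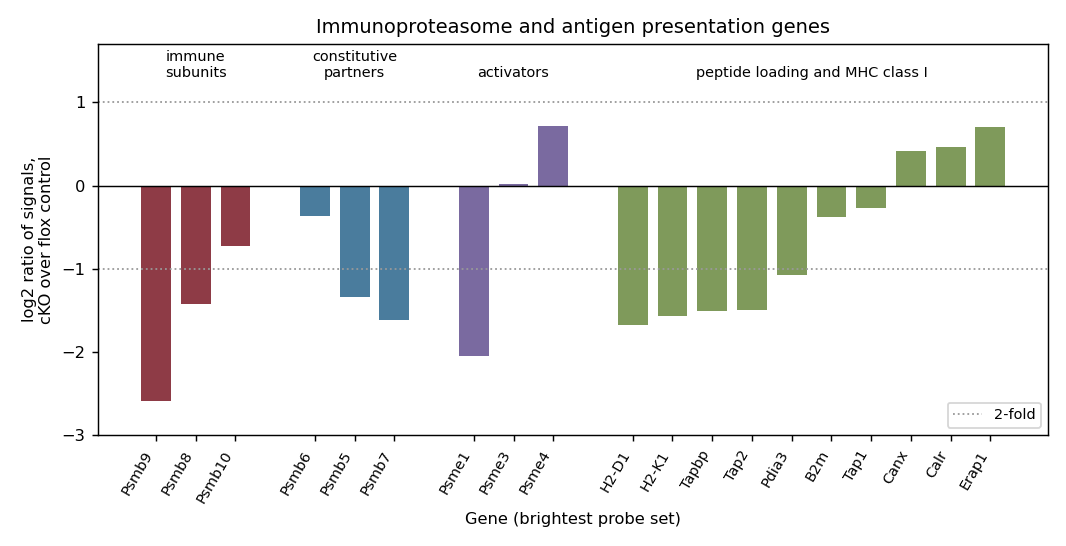
Log2 ratio of signals, knockout-labelled (cKO) over flox control (y axis), for the brightest probe set of each gene (x axis); bars are single ratios of 1 array over 1 array without error bars, and dotted lines mark 2-fold. Psmb9 at -2.58 and Psme1 at -2.05 are the lowest bars, and 5 of 10 genes of peptide loading and MHC class I lie past 2-fold lower.

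Leukocytes carry immune subunits constitutively, and their markers also differed between the arrays. Of 15 leukocyte markers 14 were measured, of which 7 were lower by 2-fold or more and 1 was higher by as much, where the shares of all genes were 13.0% and 6.21%. By any amount 8 were lower and 6 higher, or 57.1% lower, where 55.3% of all genes were. The median was -0.86, and the summed signal was 5136 on the knockout-labelled array and 5805 on the control array. Fcer1g (-2.93) and Cd68 (-1.95) were lower, as was Aif1, which was below the floor on the knockout-labelled array, and Ptprc, the pan-leukocyte antigen, was higher, with 545 in cKO and 164 in flox (1.74). Of the bright myeloid markers, Tyrobp (0.26), Csf1r (0.44) and Laptm5 (0.50) lay above 0 at their brightest probe sets, whereas Lyz2 lay at -1.23. Further probe sets gave 0.13 and -0.88 for Csf1r and -0.90 and -0.18 for Laptm5. Il2rb (-1.27), Nkg7 (-1.09) and Gzmc (-2.06) were at least 2-fold lower. The T cell marker Cd3e was at the floor on both arrays. Endothelial markers were lower in 7 of 7, 5 of them at least 2-fold, with a summed signal of 1203 in cKO and 2649 in flox. Of 8 markers of smooth muscle and pericytes 4 were at least 2-fold lower (summed signal 11475 in cKO and 11335 in flox), and of 7 measured epithelial markers 3 were at least 2-fold lower and 1 higher (1792 in cKO and 2210 in flox). The stromal markers Vim, Dcn, Col1a1 and Col3a1 were bright on both arrays and higher in cKO at their brightest probe sets. Further probe sets gave 0.26 and -0.58 for Vim, -1.26 for Col1a1 and 0.15 for Col3a1. Hoxa10 (-0.55) and Nr2f2 (-0.54, then 0.81 and 0.70) were lower. Pdgfra (-0.0018) and Pdgfrb (0.46) had -1.70 and -2.09 at further probe sets. Of 12 such markers 7 were higher and 5 lower, and 1, Hoxa11, was at least 2-fold lower. Their summed signal was 35649 in cKO and 26053 in flox, where that of all genes compared was 3.22e+06 and 2.84e+06. Hand2 and Esr1 were at or near the floor and Pgr was dim, with 29.7 in cKO and 52.6 in flox (-0.83). In RNA of pooled cells, fewer cells of a type and less RNA per cell cannot be told apart, and the part of these cells in the ratios of the immune subunits was not tested.

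The ATPases of the Psmc family form the hexameric ring that unfolds substrates, and they were split evenly. Of 6, 3 were higher and 3 lower, where 55.3% of all genes were lower. At least 2-fold higher was 1, where 6.21% of all genes were. The median of 0.25 became -0.0011 after removal of the trend with signal, -0.14 with the median over probe sets and -0.30 without _s_at and _x_at probe sets. Psmc4 had 1799 on the knockout-labelled array and 627 on the control array at its brightest probe set (1.52), the highest ratio of any proteasome gene, but 156 in cKO and 316 in flox at the other (-1.02). Psmc2 likewise had 2590 in cKO and 1674 in flox (0.63) and then 419 in cKO and 797 in flox (-0.93). Psmc6 was higher on each of 3 probe sets, at 646 in cKO and 336 in flox (0.95), 253 in cKO and 85.6 in flox (1.56), and 35.6 on the knockout-labelled array with the control array at the floor (0.85 or more). Its probe sets thus agreed in direction, but they were read on the same arrays, which is no replication. Psmc5 (-0.76) and Psmc1 (-0.46) were lower, and Psmc3 had 837 in cKO and 918 in flox (-0.13).

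The non-ATPase subunits of the Psmd family were mostly lower. Of 14, 11 were lower by any amount and 4, or 28.6%, at least 2-fold, where 55.3% and 13.0% of all genes were. Higher by 2-fold or more was 1, or 7.14%, where 6.21% of all genes were. The median of -0.46 was -0.31 after quantile normalization and -0.25 after median centring. In the lid, the part that removes ubiquitin chains, 3 of 8 genes were at least 2-fold lower. Psmd8 had 132 on the knockout-labelled array and 438 on the control array (-1.73), Psmd3 had 161 in cKO and 356 in flox (-1.15), and Psmd7, the partner of the deubiquitinase, had 119.8 in cKO and 249 in flox (-1.06). The deubiquitinase itself, Psmd14, had 892 in cKO and 901 in flox (-0.01), one of the smallest differences of all members. Psmd12 (-0.45) and Psmd13 (-0.65, with -0.26 at its other probe set) were lower by about the probe set error or less. The brightest probe set of Psmd6 read 1083 in cKO and 499.6 in flox (1.12) and the other 614 in cKO and 679 in flox (-0.15). Psmd11, a scaffold of the lid, had 1212 in cKO and 835 in flox (0.54), and of its other 3 measured probe sets 2 gave 1.32 and 0.20 and the third -0.95.

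In the base, Psmd2, which docks ubiquitin shuttles, had 379 on the knockout-labelled array and 680.0 on the control array (-0.84), and Psmd1, its scaffold partner, had 494 in cKO and 558 in flox (-0.18). Psmd4, a ubiquitin receptor, had 372 in cKO and 456 in flox (-0.29) but 48.1 in cKO and 198 in flox at a further probe set (-2.04). All 3 base genes were thus lower, and none past 2-fold at its brightest probe set. Of the chaperones that assemble the base and leave it, Psmd9 had 36.0 in cKO and 78.7 in flox (-1.13), Psmd10, also known as gankyrin, had 65.7 in cKO and 90.7 in flox (-0.47), and Psmd5 had 259 in cKO and 192 in flox (0.43).

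**Figure D3:**
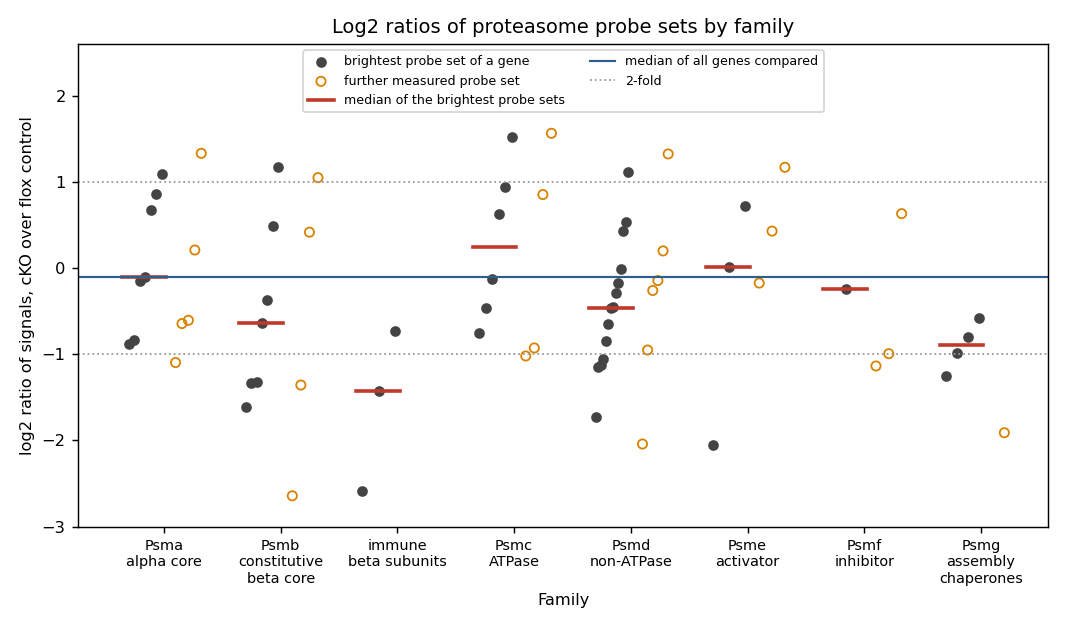
Log2 ratio of signals, knockout-labelled (cKO) over flox control (y axis), of every measured proteasome probe set by family (x axis): filled points are the brightest probe set of each gene, open points further probe sets (ratios with an array at the floor are bounds), red lines the medians of the filled points, the blue line the median of all genes compared (-0.10) and dotted lines 2-fold. The immune subunits and the assembly chaperones lie wholly below 0, and open points of the Psmb and Psmc families lie on both sides of it.

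The activators, which open the gate of the core without ubiquitin, differed from each other. Psme1, a subunit of the interferon-inducible cytosolic activator, had 174 on the knockout-labelled array and 721 on the control array (-2.05), and 0.943% of all genes compared had a lower ratio. Psme3, the subunit of the nuclear activator, had 90.7 in cKO and 89.6 in flox (0.02). Psme4, a large nuclear activator of histone degradation, was higher on each of 3 probe sets, at 456 in cKO and 277 in flox (0.72), 214 in cKO and 159 in flox (0.43), and 86.1 in cKO and 38.3 in flox (1.17). The interferon-inducible member was therefore lower, on its single probe set, while neither nuclear one was. Psmf1, which encodes a proteasome-binding protein first described as an inhibitor, had 88.2 in cKO and 104 in flox (-0.24), and of its other 3 probe sets 2 gave -0.99 and -1.14 or lower and the third gave 0.63 or more.

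The assembly chaperones of the Psmg family, which build the alpha ring, were lower in 4 of 4. Their median was -0.89, and 55.3% of all genes were lower. Psmg2 had 135 on the knockout-labelled array and 322 on the control array (-1.25), and its other probe set had 73.2 in cKO and 275 in flox (-1.91). Psmg1, its dimer partner, had 128 in cKO and 254 in flox (-0.99), Psmg4 had 85.4 in cKO and 148 in flox (-0.80), and Psmg3, the partner of Psmg4, had 81.5 in cKO and 122 in flox (-0.58). Pomp, the chaperone of beta ring assembly, had 506 in cKO and 851 in flox (-0.75). Outside the Psmg family, 10 measured genes of proteasome assembly and transcription were listed. Hspb1, a small heat shock protein, was the sole one at least 2-fold lower (-1.24), or 10%, where 13.0% of all genes were. None was higher by as much, where 6.21% of all genes were, and the median was -0.30. Nfe2l1, the transcription factor that raises proteasome genes when the proteasome is inhibited, had 192 in cKO and 323 in flox (-0.75), and Nfe2l2, the oxidative stress factor, had 391 in cKO and 470.4 in flox (-0.27).

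How a gene was probed went with the direction of its ratio. Among the 27 proteasome genes with 1 measured probe set, 25 were lower and 2 higher, 10 were lower by 2-fold or more and none was higher by as much, with a median of -0.80. Over all 5460 genes with 1 measured probe set, 65.6% were lower, 16.9% at least 2-fold, with a median of -0.28. Among the 18 proteasome genes with 2 or more, 11 were higher at the brightest. The other 38.9% were lower, where 37.5% of the 3133 such genes on the array were. The median was 0.51 for these proteasome genes and 0.26 for all such genes. All 4 proteasome genes at least 2-fold higher, Psmc4, Psmb3, Psmd6 and Psma5, were in that class.

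**Figure D4:**
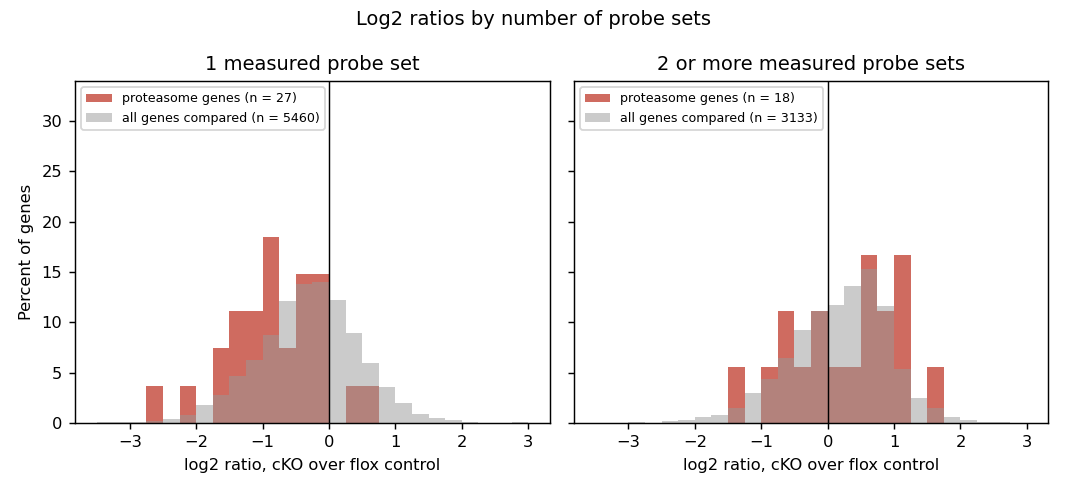
Percent of genes (y axis) by log2 ratio of signals, knockout-labelled (cKO) over flox control (x axis, bins of 0.25), for genes with 1 measured probe set (left) and with 2 or more (right), with proteasome genes in red and all genes compared in grey. Proteasome genes with 1 probe set lie mostly left of 0, and those with several lie on both sides.

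In 16 proteasome genes 2 probe sets were above the floor on both arrays. The brightest was higher and the next lower in 7 of them, Psma5, Psma6, Psmb3, Psmb4, Psmc2, Psmc4 and Psmd6, or 43.8%, where this held for 33.5% of 2660 genes on the array. The reverse held for Psmb1. The median log2 ratio of the 16 genes was 0.58 at the brightest probe set and -0.79 at the next, where over all 2660 genes it was 0.32 and -0.15. The SD of the difference between both probe sets was 1.31 for the 16 proteasome genes and 0.91 for all. All 4 genes that were at least 2-fold higher turned lower at the next probe set. With the second-brightest measured probe set in place of the brightest, a choice made after seeing the data, 38 of 45 proteasome genes were lower. Past 2-fold, 16 proteasome genes were lower and 2 were higher. Counts over all genes shifted the same way under this choice, from 1119 lower and 534 higher past 2-fold to 1391 and 433. The median of all genes went from -0.10 to -0.24, and that of proteasome genes from -0.46 to -0.76. The 10 genes with 1 measured probe set that were at least 2-fold lower cannot change with this choice. They have no further measured probe set, so it does not check them. The eleventh gene at least 2-fold lower, Psmg2, was lower at both of its own.

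**Figure D5:**
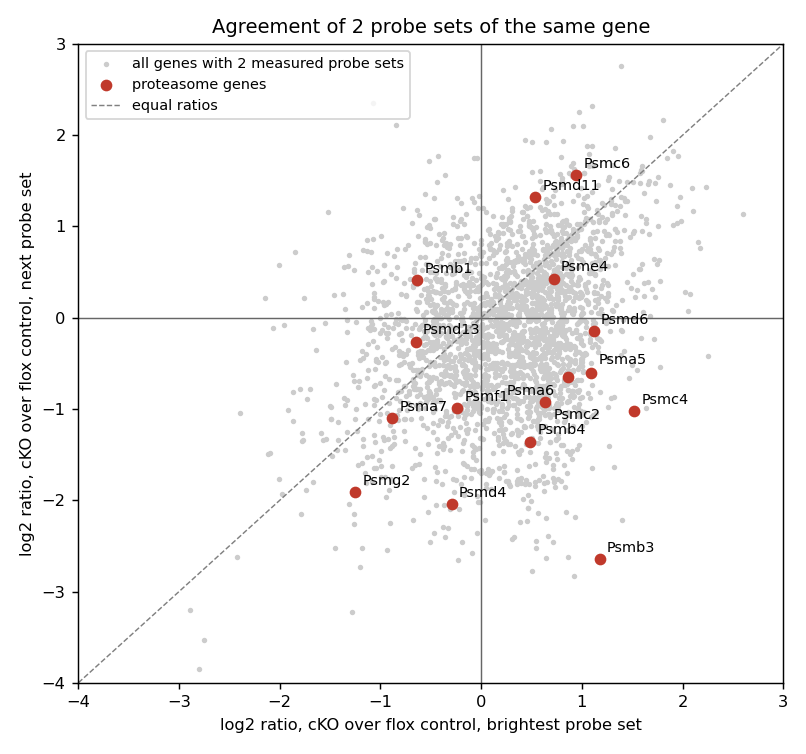
Log2 ratio of signals, knockout-labelled (cKO) over flox control, at the brightest probe set of a gene (x axis) and at the next (y axis), for 2660 genes (grey) and 16 proteasome genes (red, named), with the dashed line marking equal ratios. To the lower right of both axes, 7 proteasome genes are higher at the brightest probe set and lower at the next, with Psmb3 at 1.18 and -2.64.

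Genes that bring substrates to the proteasome were measured on the same arrays, and their differences from its subunits were not tested. Of 12 measured ubiquitin receptors, shuttles and deubiquitinases, 8 were higher and 33.3% lower, where 55.3% of all genes were lower. At least 2-fold higher was 1, or 8.33%, and none was as much lower, where 6.21% and 13.0% of all genes were. The median of 0.32 was -0.11 over the 3 genes with 1 measured probe set. The gene past 2-fold was Sem1, a small subunit of the lid, with 2104 on the knockout-labelled array and 962 on the control array (1.13) and a ratio of 0.12 at its other probe set. Ecpas, which links the core and regulatory particles, had 160 in cKO and 155 in flox (0.05). Of 11 measured genes of VCP and its cofactors, which extract ubiquitinated proteins for degradation, 9 were lower, where 55.3% of all genes were. The median was -0.53. At least 2-fold lower were 2, or 18.2%, where 13.0% of all genes were. They were Nsfl1c, an adaptor of VCP, with 255 in cKO and 647 in flox (-1.35), and Syvn1, a ubiquitin ligase of the endoplasmic reticulum, with 83.8 in cKO and 187 in flox (-1.16). None of the 6 genes of ubiquitin and its activating enzymes listed for this comparison had a probe set with a single symbol, and they were not analysed here.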

How the data were processed

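The deposited table holds linear intensities, namely MAS5 signals of all probe sets on 2 arrays, which the authors computed in Expression Console (Affymetrix, version 1) with its MAS5 algorithm, per the submitters' processing notes. Amplification of 100 ng of RNA used the 3' Express kit of Affymetrix, per the labels' protocols. The scaling target and the detection calls were not used here. Control probe sets (64) were left out of genes. Of 22626 others, 20380 have 1 symbol, 691 several and 1555 none; symbols came from the platform annotation and were updated through Entrez identifiers in a RefSeq table of GRCm38.p6. Signals were floored at the 40th percentile, and genes at the floor on both arrays (3800) were left out. Of 46 proteasome genes 38 had a RefSeq promoter window; the others were Psma8, Psmb1, Psmb2, Psmb7, Psmc3, Psmd3, Psmd7 and Psmg2.

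Genes and lists were chosen with earlier results of these data known. Members are counted by a size rule of 2-fold; named are all members past it, the extremes of each family, the catalytic, immune and activator subunits, and genes whose probe sets disagree. Of each pathway list, genes past 2-fold are named, and others named were chosen after their values were seen. Samples were grouped by title. The size rule was run on simulated data, which checks the code and cannot show how far the calls of these 2 arrays hold. Alternatives were quantile normalization, median centring, removal of a lowess trend (span 0.4, statsmodels 0.14.6), floors at the 25th and 60th percentiles, a pseudocount of 4.70 without a floor, the median over probe sets, leaving out _s_at and _x_at probe sets, and limits of 1.5-fold and 3-fold. The number of arrays limits the precision.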

Additional observations from a re-analysis of the deposited data

How the results depend on the processing

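No paired analysis was possible because each group has 1 array, and no replicate could be left out. All 15 proteasome genes past 2-fold kept their direction under 7 of the 8 planned settings of scaling, floor, pseudocount and probe sets. Of these genes 10 to 15 stayed past 2-fold. Another floor or a pseudocount cannot turn the sign of a probe set's ratio. None of the 15 was represented by an _s_at or _x_at probe set, so leaving those out could not change them. Direction under those settings was fixed in advance and does not show how firm it is. With the median over probe sets Psmb3 turned to -0.73. Counts of proteasome genes past 2-fold were 9 higher and 20 lower at 1.5-fold, 0 and 4 at 3-fold, 1 higher after removal of the trend with signal, and 0 higher with the median over probe sets. Of all genes, 1592 were higher and 2268 lower at 1.5-fold, 106 and 330 at 3-fold, and 601 were lower with the floor at the 60th percentile. After median centring 966 were higher, after removal of the trend 654, and with the median over probe sets 364.

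Medians of log2 ratios follow. Median centring gave 0.10 for all genes, -0.26 for proteasome genes, -0.25 for Psmd, -0.10 for assembly and transcription, 0.52 for ubiquitin receptors, -0.32 for VCP, -0.52 for peptide loading, -0.13 for interferon signalling, -0.058 for COP9, -0.18 for eIF3 and 0.41 for ribosomal proteins. Quantile normalization gave 0.032 for all genes, -0.94 for peptide loading and -0.21 for ribosomal proteins. Removal of the trend gave -0.012 for all genes, -1.0 for peptide loading, -0.63 for eIF3 and -0.28 for ribosomal proteins. The median of all genes was -0.064 and -0.054 with the floor at the 25th and 60th percentiles. The median over probe sets gave -0.17 for all genes, -0.14 for Psmc, -1.03 for peptide loading and 0.036 for ribosomal proteins. Without _s_at and _x_at probe sets it was -0.20 for all genes, -0.64 for proteasome genes, -1.33 for Psmb, -0.30 for Psmc and -0.11 for ribosomal proteins.

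Chosen after seeing the data, the second-brightest probe set gave 2 higher proteasome genes and medians of -0.24 for all genes, -0.76 for proteasome genes, -0.61 for Psma, -1.34 for Psmb, -0.61 for Psmc, 0.065 for ubiquitin receptors, -0.99 for peptide loading and 0.036 for ribosomal proteins, and it turned Psma5 to -0.61, Psmb3 to -2.64, Psmc4 to -1.02 and Psmd6 to -0.15. Genes with 1 measured probe set, also so chosen, held 0 higher proteasome genes and 209 higher genes in all, with medians of -0.28 for all genes, -0.80 for proteasome genes, -1.33 for Psmb, -0.46 for Psmc, -2.05 for Psme (1 gene), -0.11 for ubiquitin receptors, -0.92 for VCP, -0.66 for eIF3 and 0.046 for ribosomal proteins. The cause of these shifts was not tested.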

Other observations

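The lid of the proteasome is related to the COP9 signalosome, which removes the modifier NEDD8 from ubiquitin ligases, and to the translation initiation factor eIF3, and these complexes gave other counts on the same arrays. Of 10 measured genes of the COP9 signalosome none was past 2-fold and 7 were lower, where 55.3% of all genes were lower. The median log2 ratio was -0.26. Cops9 had a signal of 1687 on the knockout-labelled (cKO) array and 1283 on the control (flox) array (0.40). Cops5, the catalytic subunit, had 429 in cKO and 551 in flox (-0.36), and Cops6, its partner, had the lowest ratio of the list, with 353 in cKO and 660.2 in flox (-0.90). Of 11 measured eIF3 genes 2, or 18.2%, were at least 2-fold higher and none was as much lower. Of all genes, 6.21% and 13.0% were. The eIF3 median was -0.39. Eif3e had 3759 in cKO and 1578 in flox (1.25) and Eif3a had 1782 in cKO and 801 in flox (1.15), and all further measured probe sets of both were higher, at 1.09 and 0.98 for Eif3e and 0.95 and 1.22 for Eif3a. Of 43 measured ribosomal protein genes 2 (4.65%) were higher and 4 (9.30%) lower by 2-fold or more, where 6.21% and 13.0% of all genes were. Their median of 0.21 turned negative after quantile normalization. None of these differences from the proteasome genes was tested.

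Both genes that share only a symbol prefix with the proteasome were also lower. Psmc3ip had 23.9 on the knockout-labelled array and 65.0 on the control array (log2 ratio -1.44), and Psme3ip1 had 167 in cKO and 199.5 in flox (-0.26), each at a single probe set.

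Probe sets of the _x_at type, which can match transcripts of other genes, were higher in 6 of 7 proteasome cases, with a median log2 ratio of 0.48, and the 963 measured probe sets of that type on the array also had a median of 0.48. The 41 measured proteasome probe sets of the plain _at type had a median of -0.76, where the 8651 on the array had -0.15.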
